A study of Danio rerio with 3 samples.

Results

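Genes of the exocrine pancreas and of gut digestion were followed in whole zebrafish larvae at 3 days post-fertilization, in 3 RNA-seq libraries. A list of 39 gene names was used, 22 of the exocrine pancreas and 17 of the gut, and identifiers were matched to it by name. The list was drawn up with earlier results of these data known. Of these names 34 were matched to identifiers: 25 by exact symbol, 2 as a RefSeq synonym (try, the older name of prss1, and ctrb1, now ctrb.1) and 7 without the paralog letter or number. The names cpa4, pnliprp2, cdx1b, si and chia.1 were not matched and are not analysed here. The matched names gave 38 of the 27882 gene identifiers in the tables, of which 34 had at least 20 reads summed over the 3 libraries, 20 of the pancreas and 14 of the gut.

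Wild-type larvae served as control. Larvae of the HRAS group had the transgene Tg(fli1ep:GAL4FF)ubs3, which places the GAL4FF driver under the endothelial fli1ep promoter, and Tg(UAS:eGFP-HRASV12)io006, an eGFP fusion of the oncogene HRASV12. Those of the NICD group had that driver together with tg(UAS:NICD)kca3, which gives activated Notch in endothelial cells. The labels give an AB background for all of them and no driver for the control, so driver and transgene cannot be told apart against it. How many larvae went into each library is not stated. The promoter named is endothelial, and acinar cells and enterocytes are not its stated target.

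Each group had 1 library, with 26384466 corrected reads in control, 41105619 in HRAS and 21944303 in NICD, so no difference has a replicate check and all comparisons are between these libraries. Levels are given as corrected reads and as scaled CPM, which are counts per library size after TMM scaling. The range in brackets after a fold is the exact 95% counting interval of the ratio (conditional binomial), and leaves out all other error. A gene was called higher or lower if the libraries compared held 50 or more of its reads between them, the fold was 2 or more in either direction, and the interval left out 1. In RNA of whole larvae, fewer cells of a type and less RNA per cell cannot be told apart.

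Acinar cells of the exocrine pancreas make digestive enzymes, most of them as inactive precursors, and store them in zymogen granules until they are released into the gut. Their gene programme is driven by the transcription factor Ptf1a with its partner Rbpjl, while Bhlha15, also called Mist1, shapes the secretory apparatus of mature acinar cells, as known from mouse. Enterocytes of the gut carry a brush border of microvilli with peptidases and transporters, and they package absorbed lipid with apolipoproteins. In zebrafish larvae the yolk syncytial layer and the liver also make apolipoproteins, so apoa1a, apoa4b.1 and apobb.1 do not report on the gut alone.

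Most pancreas genes stood below the control in both transgenic libraries, unevenly in HRAS and more evenly in NICD. Gut genes had medians closer to the control, but in NICD they too lay mostly below it. In HRAS against control 6 of the 18 pancreas genes with enough reads were lower and 1 was higher, where 4.14% of all 20873 genes tested were lower and 6.09% higher. The lower ones were prss59.1, prss59.2, ela2, both CEL identifiers and amy2a, and the higher one was BHLHA15. The median log2 ratio over the 20 measured pancreas genes was -0.57, beside 0.0055 over all 23330 genes with 20 reads. Of the 20, 17 lay below 0, prss1 among them at only -0.0004, where 49.5% of all genes did. No gut gene of 14 was called, and their median was -0.047. Intervals of pancreas genes lay below 1 for 12 of 20 and above 1 for 3. Those of gut genes lay below 1 for 5 of 14 and above 1 for 6. Over all genes 29.3% lay below and 30.2% above.

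In NICD against control 2 of 16 pancreas genes were lower, 1 CEL identifier and amy2a, and 0 were higher, where 3.12% of all 20061 genes tested were lower and 3.56% higher. The median over the 20 pancreas genes was -0.52, beside 0.039 over all genes, and 19 of the 20 lay below 0, where 46.6% of all genes did. Of the gut genes 1 of 12, SLC15A1, was higher and 0 were lower, with a median of -0.22 and 12 of 14 below 0. Intervals lay below 1 for 12 of the 20 pancreas genes and above 1 for 0. For gut genes they lay below 1 for 8 of 14, a like share, and above 1 for 2. Over all genes 24% lay below and 28.9% above. These comparisons share the control library, and no second control library shows how far that one is typical.

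**Figure D1:**
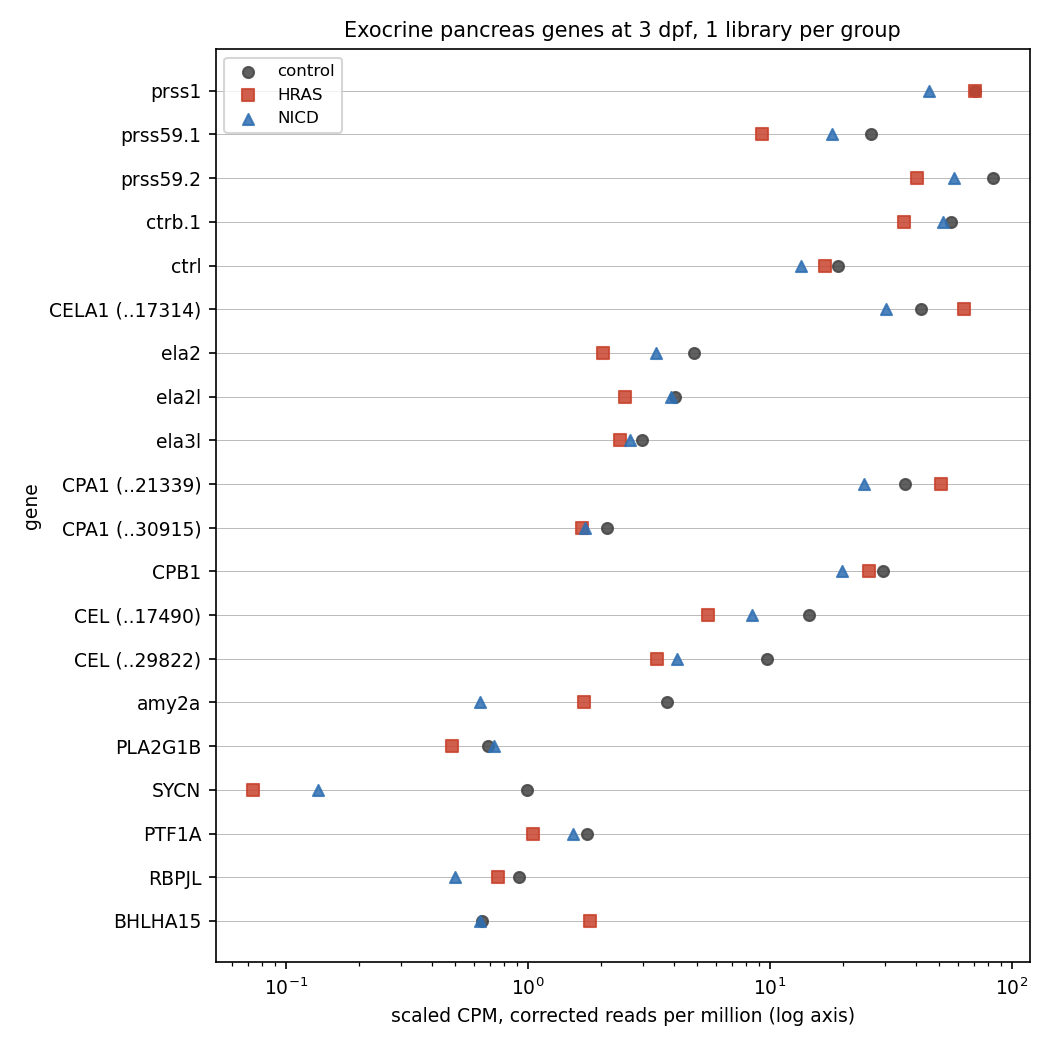
Scaled CPM (log axis) of the 20 measured exocrine pancreas genes, 1 symbol per library and gene; a name with 2 identifiers shows the last digits of each. The control lies highest in most rows, and HRAS lies above it for CELA1, CPA1 (ENSDARG00000021339) and BHLHA15.

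The trypsins, which cleave proteins and activate the other zymogens, were among the most abundant pancreas genes. The gene prss59.2 had 2188 reads in control, 1675 in HRAS and 1278 in NICD, or 83.4, 40.7 and 57.9 CPM. Its relative prss59.1 had 687, 381 and 399 reads, or 26.2, 9.27 and 18.1 CPM. In both the control was highest, NICD intermediate and HRAS lowest. Against control, prss59.1 stood at 0.354 [0.311 to 0.402] in HRAS and 0.691 [0.609 to 0.782] in NICD, and prss59.2 at 0.489 [0.458 to 0.521] and 0.695 [0.648 to 0.744].

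The third trypsin gene, prss1, did not share the low HRAS value. It had 1848 reads in control, 2895 in HRAS and 1004 in NICD, or 70.4, 70.4 and 45.5 CPM, so that control and HRAS were level and NICD was low. Its fold was 1.0 [0.943 to 1.06] in HRAS and 0.646 [0.598 to 0.698] in NICD. None of the reads of prss59.1 and prss59.2 were unique, and of prss1 only 52, 72 and 23 were. The genes prss59.1 and prss59.2 are direct neighbours on chromosome 16 of the RefSeq assembly GRCz12tu. Whether their non-unique reads are shared between these genes or between transcripts of 1 gene was not tested. The 3 trypsins summed came to 180 CPM in control, 120 in HRAS and 122 in NICD, or 0.669 [0.643 to 0.696] and 0.675 [0.643 to 0.708] of the control. On corrected reads the summed trypsins thus stood at like values in both transgenic libraries. On the few unique reads, all of them from prss1, the sum stood at 0.888 [0.615 to 1.3] in HRAS and 0.529 [0.306 to 0.87] in NICD. HRAS was then at 1.68 [1.05 to 2.85] of NICD. The likeness rests on reads that were not unique, those of prss59.1 and prss59.2 among them. The unique sum leaves out both of these genes, so it cannot check the likeness.

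Chymotrypsins are serine proteases that cut after bulky aromatic residues. Of ctrb.1 there were 1463 reads in control, 1472 in HRAS and 1147 in NICD, or 55.8, 35.8 and 52.0 CPM, with HRAS lowest and NICD near the control. Its fold of 0.642 [0.597 to 0.691] in HRAS was under the limit for a call, but on its unique reads, 130, 77 and 81, it stood at 0.382 [0.284 to 0.509] and was called lower. The chymotrypsin-like gene ctrl, whose reads were mostly unique, had 19.1, 16.9 and 13.4 CPM, and stood at 0.884 [0.787 to 0.994] in HRAS and 0.701 [0.604 to 0.81] in NICD. Neither chymotrypsin gene was called in NICD.

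Elastases, which cut after small residues, went different ways in HRAS. The most abundant, CELA1 (ENSDARG00000017314), had 1103 reads in control, 2600 in HRAS and 664 in NICD, or 42.0, 63.2 and 30.1 CPM. HRAS was the highest library for this gene and NICD the lowest. Its fold was 1.5 [1.4 to 1.62] in HRAS and 0.716 [0.649 to 0.789] in NICD, neither of them called, and the direct HRAS against NICD fold of 2.1 [1.93 to 2.29] was called higher.

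The gene ela2 had 127, 84 and 75 reads in control, HRAS and NICD, or 4.84, 2.04 and 3.4 CPM, with the control highest. It stood at 0.423 [0.317 to 0.56] in HRAS and 0.704 [0.521 to 0.941] in NICD, and none of its reads were unique. Its chromosomal neighbour ela2l had 4.04, 2.51 and 3.9 CPM and ela3l had 2.97, 2.41 and 2.63 CPM, and neither was called in any comparison. Because CELA1 held most of the reads, the 4 elastases summed stood at 1.3 [1.22 to 1.39] of the control in HRAS and 0.743 [0.682 to 0.808] in NICD, while the median of the 4 log2 ratios was -0.5 in HRAS and -0.33 in NICD.

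Carboxypeptidases trim residues from the carboxyl end of the peptides that the proteases release. The main CPA1 identifier, ENSDARG00000021339, had 953 reads in control, 2093 in HRAS and 541 in NICD, or 36.3, 50.9 and 24.5 CPM, and nearly all of these reads were unique. HRAS was again highest and NICD lowest. The fold was 1.4 [1.3 to 1.51] in HRAS and 0.675 [0.606 to 0.751] in NICD, and 2.08 [1.89 to 2.29] for HRAS against NICD, which was called higher. On unique reads alone these folds were 1.41, 0.669 and 2.11, so this pattern does not depend on shared reads.

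The scarcer identifier CPA1 (ENSDARG00000030915) had 56, 69 and 38 reads, and its intervals held 1 in each comparison. CPB1, which removes basic residues, had 29.3 CPM in control, 25.6 in HRAS and 19.8 in NICD. The control was highest, and CPB1 stood at 0.872 [0.794 to 0.958] of it in HRAS. In NICD it stood at 0.675 [0.599 to 0.76], and it was called in neither.

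Lipid and starch digestion genes had some of the lowest ratios. The name CEL, for the bile salt-activated lipase, belongs to a pair of identifiers, and whether each is cel.1 or cel.2 was not resolved. ENSDARG00000017490 had 381 reads in control, 229 in HRAS and 187 in NICD, or 14.5, 5.57 and 8.47 CPM. ENSDARG00000029822 had 256, 141 and 91 reads, or 9.76, 3.43 and 4.12 CPM. The control was highest for both and HRAS lowest.

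The first CEL identifier stood at 0.384 [0.324 to 0.453] in HRAS and 0.584 [0.487 to 0.697] in NICD, the former called. The other, CEL (ENSDARG00000029822), stood at 0.352 [0.284 to 0.433] and 0.424 [0.329 to 0.539] and was called lower in both. Its unique reads, 70, 49 and 24, gave 0.451 [0.306 to 0.658] and 0.411 [0.244 to 0.653], again called, whereas ENSDARG00000017490 had almost no unique reads. The phospholipase gene PLA2G1B had 18, 20 and 16 reads, too few to tell the libraries apart.

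The pancreatic amylase gene amy2a, which starts starch digestion, had 98 reads in control, 70 in HRAS and 14 in NICD, or 3.74, 1.7 and 0.634 CPM. All of them were unique. The control was highest and NICD lowest, whereas HRAS was lowest for both CEL identifiers. It stood at 0.457 [0.331 to 0.626] in HRAS and 0.175 [0.0896 to 0.299] in NICD, the lowest NICD value of any member called, and HRAS was 2.61-fold higher than NICD [1.5 to 5.16].

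SYCN encodes syncollin, a protein of the zymogen granule membrane. It had 26 reads in control and 3 in each transgenic library, or 0.991, 0.073 and 0.136 CPM, with 23, 3 and 3 of them unique. The ratios were the lowest of all members, 0.0843 [0.0143 to 0.24] in HRAS and 0.157 [0.0266 to 0.448] in NICD, but its 32 reads were under the minimum for a call. These 32 reads were the smallest total that passed the minimum of 20, and just under it lay CELA1 (ENSDARG00000043175) with 13 reads.

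The acinar transcription factors were scarce. PTF1A had 46 reads in control, 43 in HRAS and 34 in NICD, or 1.75, 1.05 and 1.54 CPM, and RBPJL had 24, 31 and 11 reads, or 0.915, 0.754 and 0.499 CPM. PTF1A stood at 0.597 [0.384 to 0.924] in HRAS and 0.882 [0.547 to 1.4] in NICD, and RBPJL at 0.821 [0.468 to 1.47] and 0.558 [0.241 to 1.16]. Neither was called, and in NICD against control RBPJL had too few reads for a call. At this depth smaller differences were not detectable. PTF1A is also known from neurons of the retina and hindbrain, so in whole larvae its reads are not those of the pancreas alone.

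BHLHA15 was the member with the highest HRAS ratio of the pancreas genes. It had 17 reads in control, 74 in HRAS and 14 in NICD, or 0.648, 1.8 and 0.634 CPM, all of them unique. Control and NICD had like values, with too few reads between them for a call, and HRAS stood above both. It was 2.72-fold higher in HRAS than in control [1.62 to 5.02] and 2.76-fold higher than in NICD [1.59 to 5.44], and stood at 0.985 [0.447 to 2.11] in NICD against control.

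Ordered by the deposited RPKM, which allows levels of different genes to be compared, prss59.2 led the pancreas genes in control at 94.6, followed by prss1 at 80.4, ctrb.1 at 39.0 and CELA1 (ENSDARG00000017314) at 34.2. In HRAS the order was prss1 at 80.9, CELA1 at 51.7 and prss59.2 at 46.5. In NICD it was prss59.2 at 66.4, prss1 at 52.5 and ctrb.1 at 36.8, the same leading trio as in the control.

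All 20 pancreas genes summed took 0.0407% of corrected reads in control, 0.0336% in HRAS and 0.0291% in NICD. On scaled CPM the sums were 410, 336 and 290, or 0.821 [0.801 to 0.842] of the control in HRAS and 0.707 [0.686 to 0.73] in NICD. On unique reads the HRAS sum turned to 1.07 [1.01 to 1.13], since prss59.1, prss59.2, ela2 and nearly all of the first CEL identifier drop out and CPA1 (ENSDARG00000021339) then holds the largest share, while the NICD sum stayed below the control at 0.669 [0.622 to 0.718]. The lower summed level in HRAS therefore rests on reads that were not unique, and that in NICD does not. Unique reads made up 22.1% of the pancreas reads, and 8 of the 20 genes had at least 50% unique reads.

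Calls made on unique reads alone, with the same rule, kept part of the pancreas pattern. Of 12 pancreas genes with 50 unique reads in HRAS and control, 3 were lower, ctrb.1, CEL (ENSDARG00000029822) and amy2a, and 1 was higher, BHLHA15, where 4.02% of all genes tested on unique reads were lower and 5.69% higher. In NICD against control 3 of 10 were lower, CELA1 (ENSDARG00000017314), CEL (ENSDARG00000029822) and amy2a, and 0 higher, where 2.91% of all genes were lower and 3.16% higher. Of the gut genes 0 of 13 were called in HRAS, and in NICD SLC15A1 was higher and LCT (ENSDARG00000060671) lower. In HRAS against NICD, where 4.66% of all genes were higher on unique reads and 5.85% lower, 4 of 11 pancreas genes were higher and 0 lower, the same 4 as on corrected reads.

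**Figure D2:**
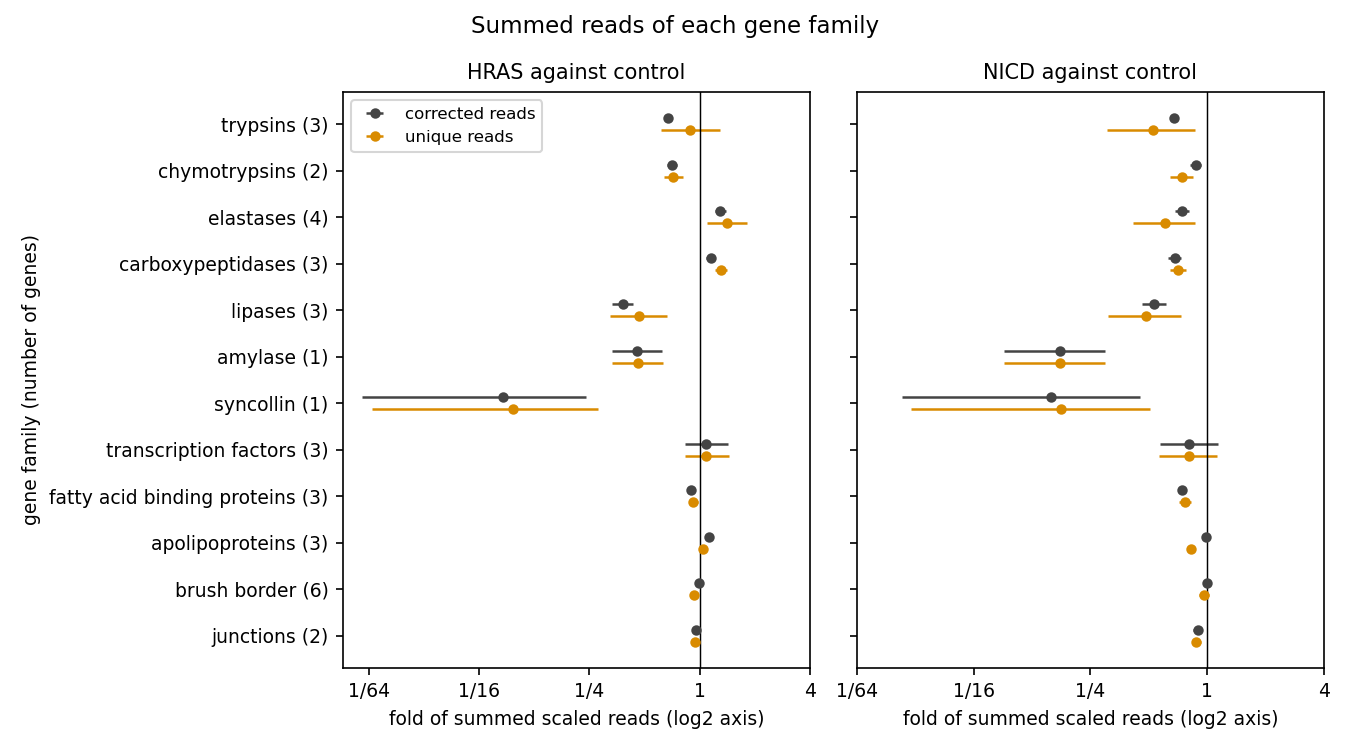
Fold of the summed scaled reads of each gene family against control (log2 axis) in HRAS and NICD, on corrected reads and on unique reads, with exact 95% counting intervals. On corrected reads in HRAS the trypsins, chymotrypsins, lipases, amylase and syncollin lie below 1 and the elastases and carboxypeptidases above it, whereas in NICD all 7 enzyme and granule families lie below 1.

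Among the gut genes, the lipid carriers were by far the most abundant. Apolipoprotein gene apobb.1 had 145375 reads in control, 269916 in HRAS and 132389 in NICD, or 5541, 6566 and 6000 CPM, and apoa1a had 76167, 123805 and 52549, or 2903, 3012 and 2381 CPM. The former encodes the structural protein of large lipoproteins and the latter the main protein of high-density lipoprotein. On corrected reads HRAS was highest for both, while NICD was lowest for apoa1a only. Folds were 1.18 [1.18 to 1.19] in HRAS and 1.08 [1.07 to 1.09] in NICD for apobb.1, and 1.04 [1.03 to 1.05] and 0.82 [0.811 to 0.83] for apoa1a. These intervals are narrow only because the counts are large, and say nothing of the spread between clutches.

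The third apolipoprotein gene, apoa4b.1, had 546, 508 and 468 CPM in control, HRAS and NICD, and stood at 0.931 [0.911 to 0.951] and 0.857 [0.835 to 0.879]. All of the reads of apoa1a were unique, whereas of apobb.1 only 4691, 8300 and 4587 were. On these apobb.1 stood at 1.14 [1.1 to 1.18] in HRAS and 1.16 [1.11 to 1.2] in NICD. HRAS against NICD was then 0.984 [0.949 to 1.02], so HRAS was not the highest library for apobb.1 on unique reads. By the deposited RPKM, apoa1a led the gut genes in control at 2964, before apobb.1 at 479 and apoa4b.1 at 452.

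Fatty acid-binding proteins ferry absorbed fatty acids or bile acids through the enterocyte. FABP2, the intestinal form, had 3112 reads in control, 4450 in HRAS and 2050 in NICD, or 119, 108 and 92.9 CPM, and FABP1 (ENSDARG00000059227) had 78.8, 69.5 and 52.2 CPM. FABP6, the ileal bile acid-binding form, had 5.68, 5.45 and 4.85 CPM. All of them were highest in control and lowest in NICD, but the intervals of FABP6 held 1 in each comparison. The 3 genes summed stood at 0.902 [0.871 to 0.935] of the control in HRAS and 0.739 [0.707 to 0.771] in NICD, and none was called.

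Brush border genes summed to nearly the same level in every library, 153 CPM in control, 152 in HRAS and 152 in NICD, but single genes differed. VIL1, which encodes the microvillar actin bundler villin, had 2627, 4570 and 2209 reads, or 100, 111 and 100 CPM, and held most of that sum. SLC15A1, the transporter that takes up small peptides, had 114 reads in control, 246 in HRAS and 211 in NICD, or 4.34, 5.98 and 9.56 CPM, all unique. NICD was highest for it and the control lowest. SLC15A1 was 2.2-fold higher in NICD than in control [1.74 to 2.79] and stood at 1.37 [1.1 to 1.74] in HRAS.

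The aminopeptidase gene ANPEP, whose product frees amino acids from the amino end of peptides, had 1164, 1224 and 876 reads, or 44.4, 29.8 and 39.7 CPM, with HRAS lowest. It stood at 0.671 [0.619 to 0.728] in HRAS and 0.895 [0.819 to 0.978] in NICD. The lactase gene LCT (ENSDARG00000060671) had 54, 125 and 23 reads, or 2.06, 3.04 and 1.04 CPM, with HRAS highest and NICD lowest. It was 2.87-fold higher in HRAS than in NICD [1.86 to 4.77], and stood at 1.47 [1.07 to 2.07] and 0.513 [0.297 to 0.839] of the control.

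The meprin gene mep1a.1, which encodes a subunit of a brush border metalloprotease, had 22 reads in control, 69 in HRAS and 11 in NICD, or 0.839, 1.68 and 0.499 CPM. None of these reads were unique. HRAS was highest, at 1.97-fold the control [1.22 to 3.4], just short of the limit, and at 3.24-fold NICD [1.77 to 7.06], which was called. The gene of the other meprin subunit, MEP1B (ENSDARG00000040683), had 25, 26 and 18 reads, and its intervals held 1 in each comparison.

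Junction genes lay close to the control. CDH17, a cadherin of the gut epithelium, had 94.3, 89.1 and 86.0 CPM in control, HRAS and NICD, and cldn15la, a claudin of tight junctions, had 31.4, 30.7 and 26.6 CPM. Folds against control were 0.945 [0.898 to 0.995] and 0.912 [0.859 to 0.969] for CDH17, and 0.978 [0.895 to 1.07] and 0.846 [0.76 to 0.942] for cldn15la. Of the identifiers under 20 reads, FABP1 (ENSDARG00000019357) had 2, 4 and 1 reads, LCT (ENSDARG00000092404) had 3, 3 and 5, and MEP1B (ENSDARG00000037533) had 0 in every library, which allows up to 0.114 CPM in control, 0.073 in HRAS and 0.136 in NICD.

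**Figure D3:**
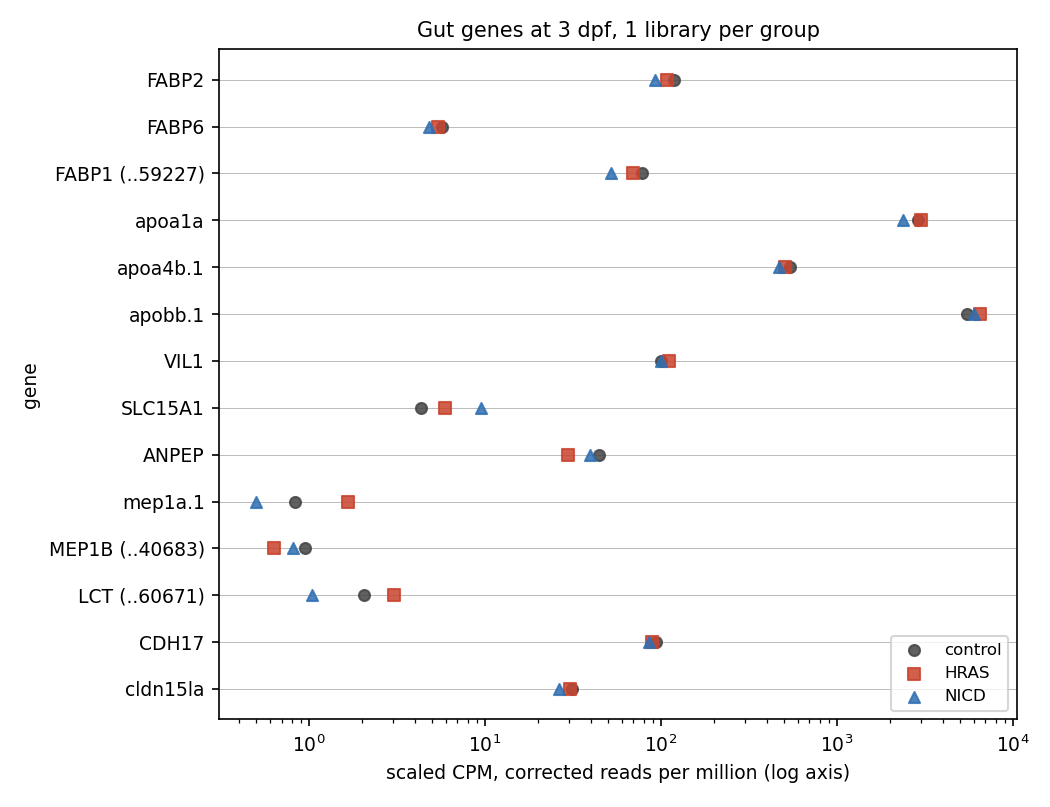
Scaled CPM (log axis) of the 14 measured gut genes, 1 symbol per library and gene. The symbols of most genes nearly coincide, and SLC15A1, mep1a.1 and LCT are the genes whose libraries lie furthest apart.

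Gut genes summed took 0.942% of corrected reads in control, 1.05% in HRAS and 0.931% in NICD, mostly from the apolipoproteins. Without those 3 genes the other 11 came to 481, 455 and 414 CPM, or 0.946 [0.925 to 0.967] of the control in HRAS and 0.86 [0.838 to 0.884] in NICD. On unique reads these folds were 0.939 and 0.881. The summed pancreas genes stood at 0.821 in HRAS and 0.707 in NICD on corrected reads, lower than these gut genes. On unique reads they stood at 1.07 and 0.669, so that the order of pancreas and gut turned in HRAS and stayed in NICD. Whether the classes differ beyond the spread between larvae was not tested.

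The direct comparison of HRAS and NICD, whose larvae share the driver, does not use the control. Of 17 pancreas genes with enough reads 4 were higher in HRAS and 0 lower, where 5.15% of all 20856 genes tested were higher and 6.19% lower. The 4 were CELA1 (ENSDARG00000017314), CPA1 (ENSDARG00000021339), amy2a and BHLHA15. The median over the 20 pancreas genes was nevertheless -0.2, since the trypsins prss59.1 and prss59.2, ctrb.1, ela2 and the lipases lay the other way. Of the 20, 12 lay below 0, where 48.9% of all genes did. Of 13 gut genes 2 were higher in HRAS, mep1a.1 and LCT (ENSDARG00000060671), and 0 lower, with a median of 0.16, beside 0.012 over all genes.

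Of the pancreas genes, prss59.1 stood at 0.513 [0.444 to 0.591] in HRAS against NICD, just short of the limit, prss59.2 at 0.703 [0.654 to 0.757] and ctrb.1 at 0.689 [0.637 to 0.745]. The trypsin prss1 lay the other way at 1.55 [1.44 to 1.66]. Intervals lay above 1 for 7 of the 20 pancreas genes and below 1 for 6, and above 1 for 9 of the 14 gut genes and below 1 for 2. Over all genes 30.7% lay above and 29.8% below.

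**Figure D4:**
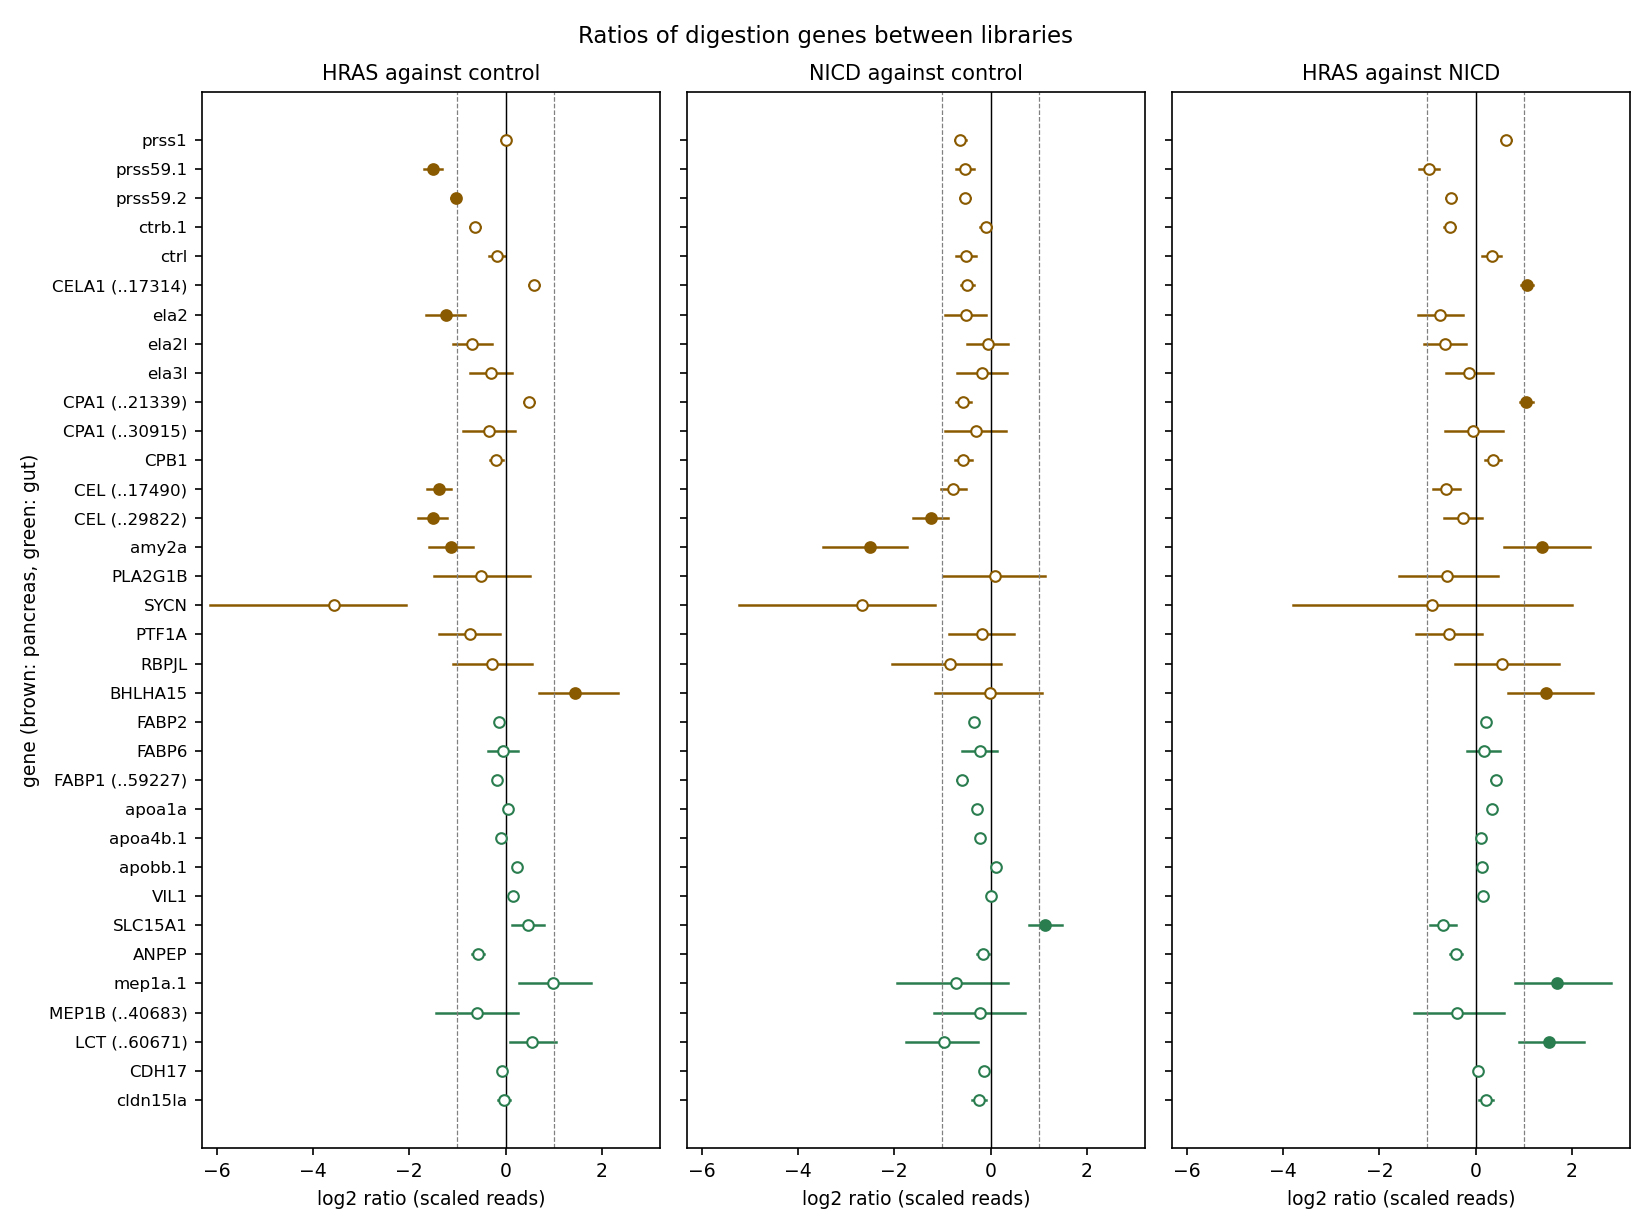
Log2 ratios of scaled reads of the 34 measured genes in the 3 comparisons, pancreas in brown and gut in green, with exact 95% counting intervals. Filled points were called, and dashed lines mark 2-fold. Pancreas genes spread widely to the left in HRAS against control, lie mostly at modest values below 0 in NICD against control, and part to both sides in HRAS against NICD.

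Further genes came from lists of tissue markers, and their counts stand beside the shares of all genes tested, 6.09% higher and 4.14% lower in HRAS against control and 3.56% higher and 3.12% lower in NICD against control. Of 10 other measured exocrine pancreas genes, 1 was higher and 0 lower in HRAS against control, with a median log2 ratio of 0.16, and 0 were higher and 1 lower in NICD, with a median of -0.36. The higher one was nupr1a, a stress-induced gene first described in pancreatitis of the rat, at 2.16-fold [1.98 to 2.36], and the lower one was spink4, of the family of serine protease inhibitors, at 0.392 [0.254 to 0.581]. GAMT of the same list had 437 CPM in control, above the 410 CPM of all 20 pancreas members summed. Which cells the reads of this list came from was not tested. A further serine protease gene, prss59, had 539 reads in control, 990 in HRAS and 264 in NICD, all unique. HRAS was highest and NICD lowest, at 1.17 [1.05 to 1.3] and 0.583 [0.501 to 0.676] of the control, and HRAS was called higher than NICD at 2.01-fold [1.76 to 2.31]. This order of libraries is the one seen in CELA1 and CPA1 (ENSDARG00000021339).

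Genes of the acinar secretory pathway were near the control, with a median of -0.11 in HRAS and -0.038 in NICD over 21 genes. Of them 1 was lower in HRAS, SSR3, on 37 and 20 reads, and 0 were called in NICD. CANX of this list alone had 382 CPM in control, beside 410 CPM for all 20 pancreas members summed. In whole larvae the reads of this list are therefore not those of acinar cells alone, and its medians do not report on them. Regulators of the pancreas and endoderm had a median of -0.023 in HRAS, with 0 of 19 called, and 0.38 in NICD, where 1 of 19, the epithelial factor ELF3, was higher at 2.13-fold [1.9 to 2.39].

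Several hormone genes of the endocrine pancreas were called higher than control. Of 15 endocrine genes with enough reads 3 were higher in HRAS and 2 in NICD against control, and 0 were lower in either, where 6.09% of all genes were higher in HRAS and 3.56% in NICD. The glucagon gene gcga had 116 reads in control, 611 in HRAS and 231 in NICD, lowest in control and highest in HRAS, and was 3.35-fold [2.75 to 4.14] and 2.36-fold [1.89 to 2.99] higher. A second glucagon identifier, GCG, was 2.48-fold [1.97 to 3.19] and 2.1-fold [1.61 to 2.77] higher. It had 88, 344 and 156 reads in control, HRAS and NICD, of which only 17, 58 and 21 were unique. The unique reads of control and NICD were too few for a call. The somatostatin gene sst2 had 122, 698 and 181 reads and was 3.64-fold higher in HRAS [3.01 to 4.46] but at 1.76 [1.39 to 2.24] in NICD, under the limit. The insulin gene ins had 221, 498 and 241 reads, at 1.44 [1.23 to 1.69] and 1.3 [1.08 to 1.56]. The list's median was -0.0011 in HRAS and 0.21 in NICD. It also holds genes known from neurons, such as NEUROD1 at 0.769 and 0.71 and SCG3 at 0.804 and 0.667.

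Over 33 other enterocyte genes the median was -0.2 in HRAS, and in NICD it was -0.18. Of 30 with enough reads 1 was higher and 5 lower in HRAS, and 2 were higher and 2 lower in NICD, where 4.14% and 3.12% of all genes were lower. The 5 lower ones in HRAS were CUBN, lrp2b, SLC10A2, 1 of the RBP2 identifiers and ESPN. CUBN and lrp2b encode endocytic receptors of enterocytes and kidney tubule. SLC10A2 encodes the ileal bile acid transporter, RBP2 a retinol carrier and ESPN an actin bundler. The called RBP2 identifier stood at 0.444 [0.411 to 0.48] in HRAS, and the other, not called, at 0.527 [0.472 to 0.587]. SLC10A2 had 85, 35 and 36 reads in control, HRAS and NICD, and stood at 0.265 [0.172 to 0.394] and 0.508 [0.331 to 0.752]. The receptor gene lrp2b had 79, 23 and 10 reads and was lower in both, at 0.189 [0.111 to 0.299] and 0.157 [0.0695 to 0.292]. The amino acid transporter name SLC6A19 belongs to 3 identifiers, and 1 of them, with 147, 388 and 361 reads, was called. In NICD it was 2.91-fold higher [2.4 to 3.56], as SLC15A1 was, and it stood at 1.68 [1.39 to 2.05] in HRAS. Its namesakes stood at 0.655 and 1.76 in HRAS and at 0.707 and 1.88 in NICD. TM4SF4 was the other enterocyte gene called higher in NICD. The endocytic adaptor dab2 was 4.01-fold higher in HRAS and at 0.48 in NICD, with 22, 279 and 20 unique reads in control, HRAS and NICD. A second identifier, DAB2, had 621, 1944 and 967 reads. It stood at 2.0 [1.82 to 2.19] in HRAS, just short of the limit. In NICD it stood at 1.85 [1.67 to 2.05], opposite to dab2 on corrected reads. The low NICD value of dab2 rests on reads that were not unique, as 22 unique reads in control stood beside 20 in NICD. The gene dab2 is also known from venous endothelium, and which cells its reads came from was not tested.

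Lists of neighbouring tissues gave mixed values. Over 24 liver genes the median was -0.0044 in HRAS, and in NICD it was 0.24, with 3 higher and 0 lower in HRAS, and 2 higher and 2 lower in NICD. Over 12 lipoprotein and yolk syncytial layer genes the medians were -0.3 and -0.39, with 0 called in HRAS and 3 lower in NICD: apoa4b.2 at 0.49, apoa4b.3 at 0.24 and apobb.2 at 0.292. Those 3 are paralogs of the gut members apoa4b.1 and apobb.1, which were not called. Unique reads in control and NICD were 89 and 70 for apoa4b.2, 13 and 13 for apoa4b.3, and 216 and 58 for apobb.2. The low values of apoa4b.2 and apoa4b.3 thus rest on reads that were not unique. Goblet, enteroendocrine and gut muscle genes had medians of -0.3 and -0.1 over 17 genes, with 2 higher in HRAS, SPDEF and 1 of the TAGLN identifiers, and 0 called in NICD. SPDEF had only 7 reads in control and 68 in HRAS, of which 5 and 10 were unique. Its call thus rests on reads that were not unique.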

How the data were processed

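Total RNA (10 ug, Trizol) of whole larvae at 3 days post-fertilization was made into libraries with an Illumina TruSeq kit, per the labels' protocols. The series' design text names an Illumina HiSeq 2000, CLC bio Assembly Cell 3.2 and the Ensembl release 63 cDNAs of Zv9, and the submitters' processing notes name CASAVA 1.8. How reads were mapped, and whether strand was used, is not stated. Per the file headers the authors deposited RPKM and counts per gene, split into unique and non-unique reads. Their corrected total reads, per the file headers, are expected counts in whole numbers, the unique reads plus a part of the others. The deposited RPKM could be rebuilt from corrected reads and the length of the longest transcript to within 0.268% for genes with at least 200 reads. Non-unique reads include those shared by transcripts of 1 gene.

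Names were found for 19635 identifiers (70.4%). Corrected reads were scaled with TMM (edgeR 4.0.16, R 4.3.3; factors 0.994, 1.0 and 1.01 for control, HRAS and NICD), and 0.5 reads were added to each library for the point ratio; the exact intervals were computed without them (scipy 1.17.1). Calls needed 50 reads, 2-fold and an interval excluding 1. The rule was run on simulated Poisson counts with planted changes. Those counts hold only the counting error that the interval models, so they say nothing of the spread between larvae or clutches. A total of 3 reads is taken as the limit that 0 reads allow. No molecular identifiers are named, and the intervals treat each read as independent. With 1 library per group no p-value was computed. Members and lists were chosen with earlier results of these data known. All measured members are described, and of each other list the rule names at most 4 called genes, by size of the log2 ratio. Named beyond it, after their values were seen, were further called enterocyte genes and the uncalled SLC6A19, DAB2 and RBP2 identifiers. So were ins, NEUROD1, SCG3, GAMT, CANX and the uncalled paralogs. No sequences or coordinates are given, as no genome was used. Alternatives were scaling by library totals, by upper quartiles or by size factors of DESeq2 1.42.0, unique reads, RPKM plus 0.1, other minimums, 5 reads added, other fold limits and stricter member sets.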

Additional observations from a re-analysis of the deposited data

Results flagged for a closer look

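In 4 members the counting intervals of HRAS and of NICD against control excluded 1 on opposite sides. With 1 library per group and a shared control, the difference was not tested. CELA1 (ENSDARG00000017314) stood at 1.5 in HRAS and 0.716 in NICD, and CPA1 (ENSDARG00000021339) at 1.4 and 0.675. The lactase gene LCT (ENSDARG00000060671) stood at 1.47 and 0.513. For apoa1a the values were 1.04 and 0.82, opposite in sign but small, and resolved only because of its high count.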

How the results depend on the processing

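No paired analysis was possible because each group has 1 library. In the comparison in which a member was called, its ratio kept its direction under each alternative that gave it a value. On unique reads prss59.1, prss59.2, ela2, CEL (ENSDARG00000017490) and mep1a.1 had too few for one. Some uncalled log2 ratios changed sign on unique reads. In HRAS against NICD CEL (ENSDARG00000029822) went from -0.27 to 0.14, ela3l from -0.13 to 0.18 and apobb.1 from 0.13 to -0.023. In NICD against control PLA2G1B went from 0.085 to -0.099. There ela2l went from -0.05 to 0.93, on 6 unique reads in control and 10 in NICD. The median log2 ratio of pancreas genes in HRAS against NICD turned from -0.2 to 0.17 on unique reads, over the 16 genes with 20 unique reads. Over the 8 genes with at least 50% unique reads it was 0.45, on corrected reads. Both sets leave out prss59.1, prss59.2, ela2 and CEL (ENSDARG00000017490), which had no or almost no unique reads. The sign of the median thus depends on which genes are counted. The summed pancreas fold in HRAS against control turned from 0.821 to 1.07 on unique reads. On unique reads the summed pancreas folds were 0.668 (NICD against control, over the 16 genes with 20 unique reads) and 1.6 (HRAS against NICD), and the summed gut folds 1.03, 0.834 and 1.23 (HRAS against control, NICD against control, HRAS against NICD). Lower pancreas genes in HRAS against control then numbered 3, lower gut genes in NICD 1, and higher gut genes in HRAS against NICD 1. Summed gut folds in the same order were 1.12, 0.989 and 1.13 on total corrected reads, 1.1, 0.958 and 1.15 with upper quartile scaling, and 1.1 and 0.966 for the comparisons with control by DESeq2 size factors. With a minimum of 200 reads, pancreas genes higher in HRAS against control numbered 0, lower in NICD 1, and higher in HRAS against NICD 2, and gut genes higher in HRAS against NICD 1. A 1.5-fold limit gave, for pancreas genes, 2 higher in HRAS against control, 4 lower in NICD and 4 lower in HRAS against NICD. For gut genes it gave 1 higher in HRAS, 2 lower in NICD and 1 lower in HRAS against NICD. It also added ctrb.1, ela2l and PTF1A, at 0.642, 0.62 and 0.597, to the pancreas genes lower in HRAS against control. The gene prss1, at 1.55, joined those higher in HRAS against NICD. Shares of all genes were computed only for the 2-fold rule at 50 reads. Counts under other limits, minimums or member sets therefore have no matching share beside them. At 4-fold only amy2a in NICD was called (1 pancreas gene lower in NICD), and the other counts were 0. Chosen after seeing the data, exact names alone gave 1 pancreas gene lower and 0 gut genes higher in NICD, and the genes with at least 50% unique reads gave 1 pancreas gene lower in HRAS, 1 lower in NICD and 1 gut gene higher in HRAS against NICD. In comparisons with NICD, members such as SYCN, RBPJL and PLA2G1B had under 50 reads in the pair of libraries compared. They could not be called there, and at that depth could show only large differences.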

Other observations

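Paralogs of the members that carry their own name in the tables were listed by name after the members had been analysed. Of 15 with 50 reads in HRAS and control, 2 were higher and 0 lower, where 6.09% of all genes were higher and 4.14% lower. In NICD against control 0 of 14 were higher and 4 lower, where 3.56% of all genes were higher and 3.12% lower. The lower ones were CPA6 and the 3 apolipoprotein genes already named in the lipoprotein list, apobb.2, apoa4b.2 and apoa4b.3. As stated there, the low values of apoa4b.2 and apoa4b.3 rest on reads that were not unique. The higher ones were acidic chitinase genes, enzymes that degrade chitin: chia.4 had 49 reads in control, 254 in HRAS and 74 in NICD and was 3.28-fold higher [2.43 to 4.59], and chia.6 had 51, 182 and 40 reads, none unique, and was 2.26-fold higher [1.66 to 3.17]. Another chitinase gene, chia.3, had 126, 351 and 126 reads, all unique, and stood at 1.77 [1.45 to 2.2] in HRAS. HRAS was the highest library for each of the chitinase genes.

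The elastase gene cela1.7 had 31 reads in control, 66 in HRAS and 3 in NICD, so that HRAS stood at 10.2 times NICD [3.87 to 58.7], and cela1.4 had 191, 405 and 150 reads, at 1.35 [1.14 to 1.62] in HRAS. By point values both had the library order of CELA1 (ENSDARG00000017314), but part of it was not resolved. Against control, cela1.7 stood at 1.35 [0.874 to 2.15] in HRAS and cela1.4 at 0.934 [0.749 to 1.16] in NICD. The syncollin paralog sycn.1 had 34, 35 and 19 reads, at 0.657 [0.398 to 1.09] in HRAS and 0.672 [0.358 to 1.2] in NICD, beside the 26, 3 and 3 reads of SYCN. The amylase paralogs amy2al1, with 31, 48 and 28 reads, and amy2al2, with 13, 22 and 20, did not have the low NICD value of amy2a.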
